A study of Mus musculus with 12 samples.

Results

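The chemokines of cultured adventitial fibroblasts were followed here through 9 ligands, Cxcl12, Cxcl1, Cxcl5, Cxcl10, Cxcl14, Ccl2, Ccl7, Ccl11 and Cx3cl1, and the scavenger receptor Ackr3. These 10 genes were chosen by name and taken as 10 of the 54352 gene symbols counted. The fibroblasts, which build the matrix of the outer coat of the artery, had been grown out of pieces of adventitia from the ascending and the descending aorta of wild-type C57Bl/6 mice, whose age the sample labels give as 14 weeks. Descending control and ascending control cultures received the solute, and descending TGFβ and ascending TGFβ cultures received mouse TGFβ at 10 ng/mL, in each case for 48 h. All cultures were kept in medium with 5% FBS and carry the same batch label. Each of the 4 groups held 3 libraries, 12 in all, with 16250126 to 23892943 reads counted on genes. The descriptions of the study do not agree on the age of the mice or on the number of passages, and nothing states whether the replicates came from separate animals, so p-values measure only the spread between these samples, which may be technical. The comparisons asked how the genes responded to TGFβ at each site, how the sites differed in either condition, and whether the response itself differed between the sites.

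Chemokines are small secreted proteins that direct the movement of cells along a gradient. Cxcl12 is made by mesenchymal cells, signals through Cxcr4 and holds stem cells and leukocytes in their niches. Ackr3 binds the same ligand and takes it up for degradation without coupling to G proteins, so that it shapes the gradient. Ccl2 and Ccl7 attract monocytes through Ccr2, Ccl11 attracts eosinophils through Ccr3, Cxcl1 and Cxcl5 attract neutrophils through Cxcr2, and Cxcl10 is an interferon-induced ligand of Cxcr3. Cx3cl1, or fractalkine, is tethered to the membrane, is released by the proteases Adam10 and Adam17 and binds Cx3cr1. Cxcl14 is a ligand expressed in many epithelial and stromal tissues.

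One library stood apart from the rest. Descending control replicate 3 detected 13031 genes where the other 11 libraries detected 19337 to 20931, and mitochondrial genes took 11% of its counts where they took 0.703 to 1.03% elsewhere. It was kept in the tests, and the tests that rest on the descending controls are given with and without it. The fibroblast markers, none of the 9 at the floor throughout, summed to between 11478 and 24588 normalised CPM, a count scaled to the size of its library, while those of lymphocytes reached at most 0.243 and those of neutrophils at most 0.0974. In one ascending control library, replicate 2, the 9 macrophage markers summed to 374 normalised CPM, against 58.5 and 62.3 in the other ascending controls and 15.4 to 52.2 in the remaining groups. Of the fibroblast markers, 3 (Col1a1, Col1a2 and Pdgfrb) rose and 6, among them Pdgfra, Thy1 and Dpt, fell with TGFβ in ascending fibroblasts, with a median log2 fold change of -1.07, where 28.2% of all genes rose and 27.6% fell. In descending fibroblasts 2 of the 9 rose and 4 fell, with a median of -0.91, where 3.59% of all genes rose and 4.48% fell, and 3 rose and 6 fell without control replicate 3, where 26.6% and 26.3% of all genes did. The summed level was higher with TGFβ at both sites, 18504 to 24588 against 11478 to 13423 in the controls, while most of the markers called were lower. As a check of the treatment, against the same shares of all genes, 10 of 11 known TGFβ targets that were tested rose with TGFβ in ascending fibroblasts and 1, Tgfbi, fell, while in descending fibroblasts 7 rose and 1, again Tgfbi, fell. There, 10 rose and 1 fell without descending control replicate 3.

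Cxcl12 lies on chromosome 6 of GRCm38 (chr6:117168535-117181367, plus strand) and Ackr3 on chromosome 1 (chr1:90203980-90216751, plus strand). Of the remaining genes, Cx3cl1 lies at chr8:94772009-94782427. The 3 CC ligands are neighbours on chromosome 11, with Ccl2 at chr11:82035571-82037453, Ccl7 at chr11:82045712-82047525 and Ccl11 at chr11:82057823-82062955, all on the plus strand. None of these 6 genes shared a 50-base exon sequence with another gene. Cxcl10 shared 3.59% of its 50-base exon sequences with the overlapping gene Art3.

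The 250 bases before the annotated start were read from RefSeq (GRCm38.p6) for 6 of the 10 genes, and 3 are shown: those of Cxcl12 and Ackr3, whose response to TGFβ differed between the sites, and that of Cxcl10, an interferon-induced gene that stayed near the detection limit. Capitals mark matches to the motifs searched, on either strand and with overlapping matches kept, which were the kB site, the interferon-response core (a pair of GAAA parted by NN), the AP1 site TGANTCA, the SMAD box GTCTG, the TATA box TATAAA and the box CCACACCC.
Cxcl12, chr6:117168285-117168534, plus strand: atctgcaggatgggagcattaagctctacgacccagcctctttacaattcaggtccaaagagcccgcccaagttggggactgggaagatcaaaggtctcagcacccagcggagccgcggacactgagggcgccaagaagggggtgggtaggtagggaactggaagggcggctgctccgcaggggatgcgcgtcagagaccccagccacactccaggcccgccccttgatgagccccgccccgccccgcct
Ackr3, chr1:90203730-90203979, plus strand: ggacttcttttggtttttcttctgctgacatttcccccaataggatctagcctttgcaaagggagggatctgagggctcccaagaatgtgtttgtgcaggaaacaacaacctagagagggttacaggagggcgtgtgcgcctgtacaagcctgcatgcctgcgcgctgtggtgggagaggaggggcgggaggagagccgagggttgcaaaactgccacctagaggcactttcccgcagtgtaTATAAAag
Cxcl10, chr5:92348890-92349139, minus strand: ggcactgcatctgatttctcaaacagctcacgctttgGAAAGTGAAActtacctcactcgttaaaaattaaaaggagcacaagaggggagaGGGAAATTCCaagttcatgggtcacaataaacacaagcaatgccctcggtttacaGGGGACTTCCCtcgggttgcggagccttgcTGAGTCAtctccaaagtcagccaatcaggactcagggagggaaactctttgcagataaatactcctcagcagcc
The window of Cxcl12 held none of the 6 motifs, and that of Ackr3 held only a TATAAA, which began 8 bases before the start. That of Cxcl10 held a kB match beginning 159 bases before the start, a pair of overlapping kB matches beginning at 104 and 103 bases, the interferon-response core at 213 bases and the AP1 site at 74 bases. Over 32851 mouse promoters of the same length, 7.25% held the kB site, 2.98% the interferon-response core, 6.75% the AP1 site, 42.2% the SMAD box, 12.4% the TATA box and 3.20% the box CCACACCC. A match describes the letters only, and the absence of one says nothing of the factors that act on the gene.

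Cxcl12 was the most abundant of the chemokines at both sites, and TGFβ moved it down in descending and slightly up in ascending fibroblasts. In descending controls it stood at 1055, 1082 and 742 normalised CPM in replicates 1 to 3, and in descending TGFβ cultures at 366, 399 and 347. The descending groups did not overlap, and the lowest control value was that of the library that stood apart. In ascending fibroblasts Cxcl12 stood at 913, 893 and 915 normalised CPM in the controls and at 1079, 1063 and 1047 with TGFβ. All 3 treated ascending libraries lay above all 3 ascending controls, by a margin far smaller than that between the descending groups.

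The fall of Cxcl12 in descending fibroblasts was 2.60-fold, or -1.38 on the log2 scale with a standard error of 0.18 (quasi-likelihood test of edgeR, p adjusted by Benjamini-Hochberg = 0.00929). Without descending control replicate 3 it was 2.88-fold (log2 fold change -1.52, standard error 0.05, adjusted p = 7.83e-21 from the same edgeR test). Leaving out descending TGFβ replicate 1, 2 or 3 gave adjusted p values of 0.0828, 0.0725 and 0.0845 from that edgeR test, so the call was lost while the direction was not. In ascending fibroblasts the rise was 1.17-fold (log2 fold change 0.22, standard error 0.03, adjusted p = 1.37e-06 by edgeR's test). It did not pass when the spread was estimated over the 12 libraries in one fit (log2 fold change 0.23, edgeR adjusted p = 0.297). In such bulk cultures, fewer cells of a type and less RNA per cell cannot be told apart.

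Ackr3 fell with TGFβ at both sites, and more so in ascending fibroblasts. It stood at 87.2, 86.7 and 71.0 normalised CPM in descending controls and at 37.5, 40.8 and 37.0 in descending TGFβ cultures. In ascending fibroblasts it stood at 132, 138 and 127 normalised CPM in the controls and at 27.5, 24.2 and 27.4 with TGFβ. The treated groups lay below the controls without overlap at each site, and the ascending cultures held both the highest values, untreated, and the lowest, treated. The decrease was 5.05-fold in ascending fibroblasts (log2 fold change -2.34, standard error 0.06, edgeR adjusted p = 2.31e-15). In descending fibroblasts it was 2.13-fold (log2 fold change -1.09, standard error 0.13, edgeR adjusted p = 0.00802), and 2.26-fold without descending control replicate 3 (log2 fold change -1.18, edgeR adjusted p = 5.67e-16). As for Cxcl12, leaving out descending TGFβ replicate 1, 2 or 3 lost the descending call, with adjusted p values of 0.0840, 0.0705 and 0.0845 from edgeR's test.

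**Figure D1:**
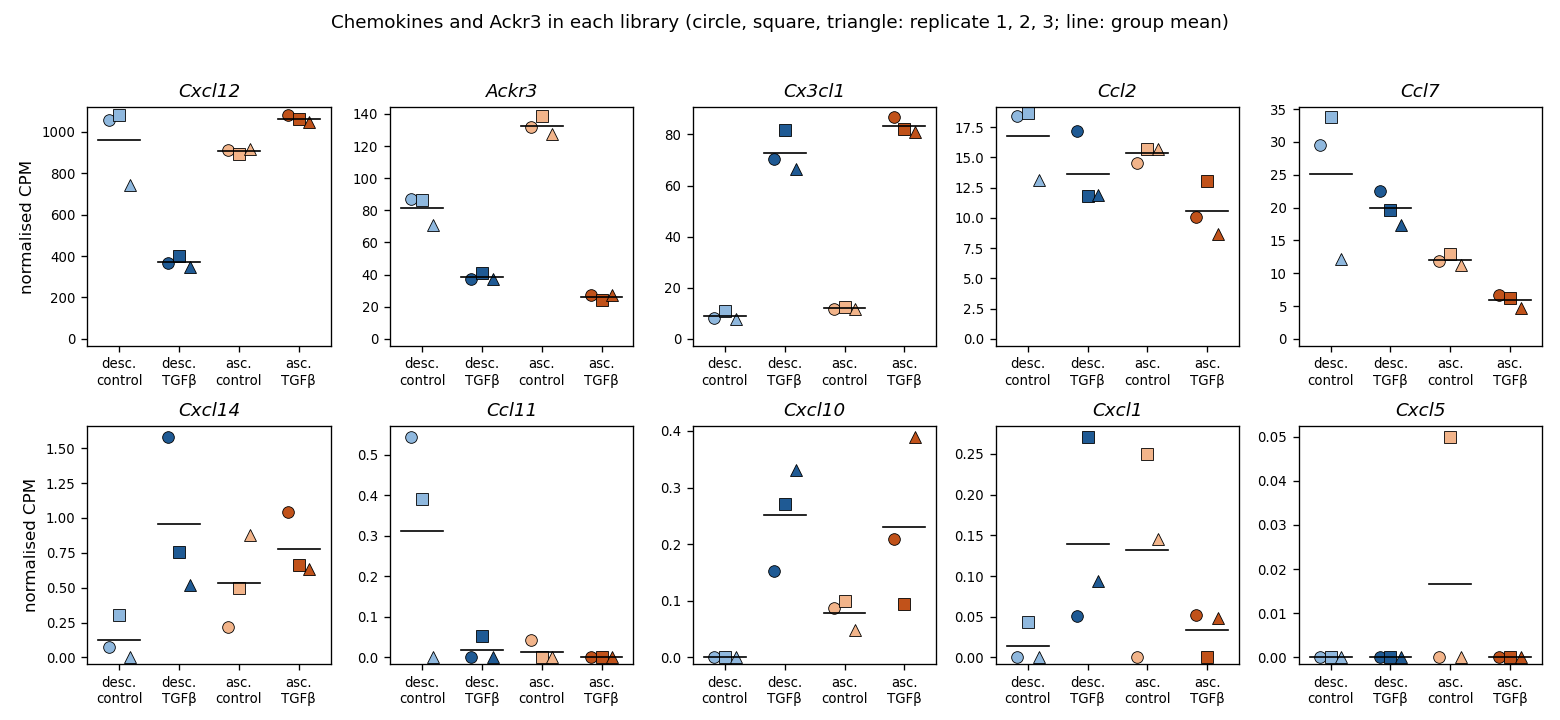
Normalised CPM (linear axes, scaled to each gene) of the 9 chemokine ligands and Ackr3 in each of the 12 libraries, grouped by site (desc., descending; asc., ascending) and treatment; circles, squares and triangles are replicates 1, 2 and 3, and lines are group means. Cxcl12 falls with TGFβ in descending fibroblasts alone, Ackr3 falls and Cx3cl1 rises at both sites, and the lower row holds genes that stay under 1.59 normalised CPM.

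The response to TGFβ was compared between the sites with an interaction term, the change in ascending minus the change in descending fibroblasts on the log2 scale. Of the 6 members that passed the filter on low counts, 2 were called, 1 with a positive and 1 with a negative interaction, where 0.806% of all 14637 genes tested were, 0.321% positive and 0.485% negative. The interaction of Cxcl12 was 1.60 (standard error 0.18, edgeR adjusted p = 0.00411) and ranked at 9 of the 14637 genes by p in this fit of 12 libraries. That of Ackr3 was -1.24 (standard error 0.14, edgeR adjusted p = 0.00427) and ranked at 14. These ranks hold for this fit only. The pair thus carried opposite signs, since Cxcl12 fell in descending fibroblasts only while Ackr3 fell further in ascending ones.

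Leaving out descending control replicate 3 gave interactions of 1.75 for Cxcl12 (edgeR adjusted p = 1.75e-16) and -1.16 for Ackr3 (edgeR adjusted p = 4.58e-10), and called 13.5% of 15013 genes, 6.07% positive and 7.4% negative, and again 2 of the 6 members. Over 18 alternatives, 12 of which left out 1 library each, the Cxcl12 interaction lay between 1.51 and 1.77 and that of Ackr3 between -1.29 and -1.14. The largest adjusted p among these alternatives was 0.0251 for either gene, so both stayed past the threshold in every alternative run.

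The other 4 members tested had interactions that did not pass. That of Cx3cl1 was -0.23 (standard error 0.19, adjusted p = 0.645 by edgeR's test), that of Ccl2 -0.23 (standard error 0.29, adjusted p = 0.737) and that of Ccl7 -0.69 (standard error 0.44, adjusted p = 0.580). For Cxcl14 it was -2.19 with a standard error of 1.12 (edgeR adjusted p = 0.552), too wide to say how its responses compare. Without descending control replicate 3 these 4 values were -0.15, -0.09, -0.37 and -1.76, and none passed. The median interaction of the 6 members was -0.46, beside -0.06 for all genes tested. Without descending control replicate 3 it was -0.26, beside 0.01 for all genes.

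**Figure D2:**
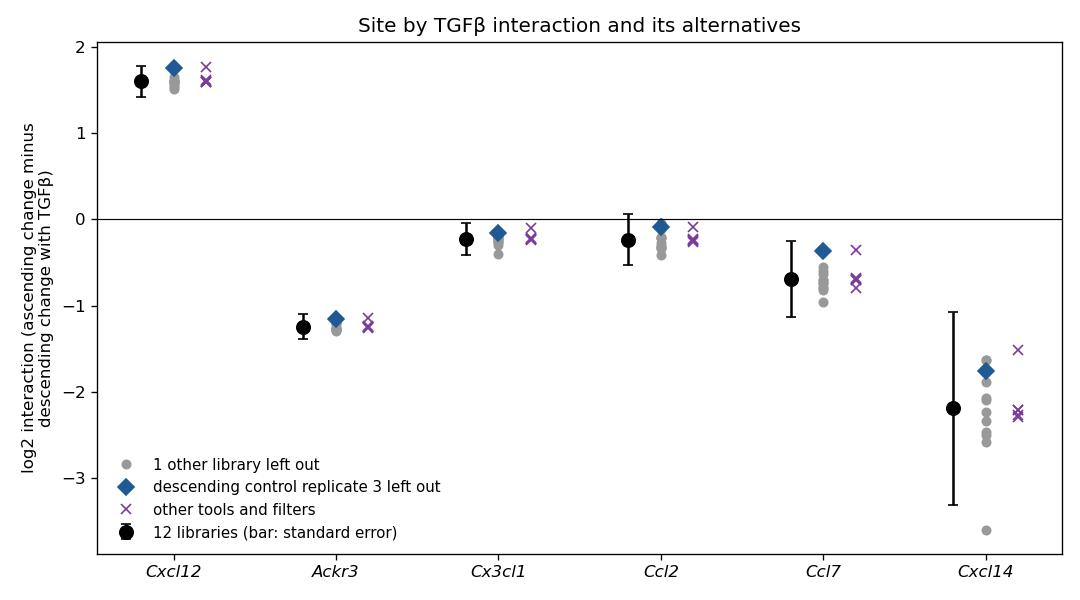
Site by TGFβ interaction (log2 scale, ascending change minus descending change) of the 6 members tested; black points with bars are the fit of 12 libraries and its standard error, grey points leave out 1 library each, blue diamonds leave out descending control replicate 3, and crosses are other tools, filters and the replicate block. Cxcl12 lies between 1.51 and 1.77 and Ackr3 between -1.29 and -1.14, while Cxcl14 spreads from -3.60 to -1.51.

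Set against each other per length, Cxcl12 and Ackr3 moved apart in ascending TGFβ cultures. The ratio of their counts per kilobase of exon was 4.95, 5.11 and 4.28 in descending controls and 4.0, 4.0 and 3.83 in descending TGFβ cultures. In ascending controls the ratio was 2.84, 2.64 and 2.94, and in ascending TGFβ cultures 16.1, 18 and 15.7. The ascending TGFβ group lay above the rest with a wide gap, the ascending controls were the lowest group, and no groups overlapped. The lengths used were those of all annotated exons of a gene joined, 8176 bases for Cxcl12 and 3348 for Ackr3, so the ratio between genes depends on which transcripts the cells made while its change between groups rests on the counts.

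Among 38 chemokine ligands counted, Cxcl12 held the largest share in every library. On the scale of counts per kilobase it took 64.7 to 70.4% of the ligands in descending controls, 69.2 to 72.6% in ascending controls and 61.0 to 61.8% in ascending TGFβ cultures. In descending TGFβ cultures it took 35.6 to 39.5%, below all other groups. Ccl7 then held 19.7 to 22.3% per kilobase and Cx3cl1 14.2 to 16.9%. A total of 16 of the 38 ligands had 3 counts or fewer, the floor used here, in every library, and 9 lay above the floor in every library.

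**Figure D3:**
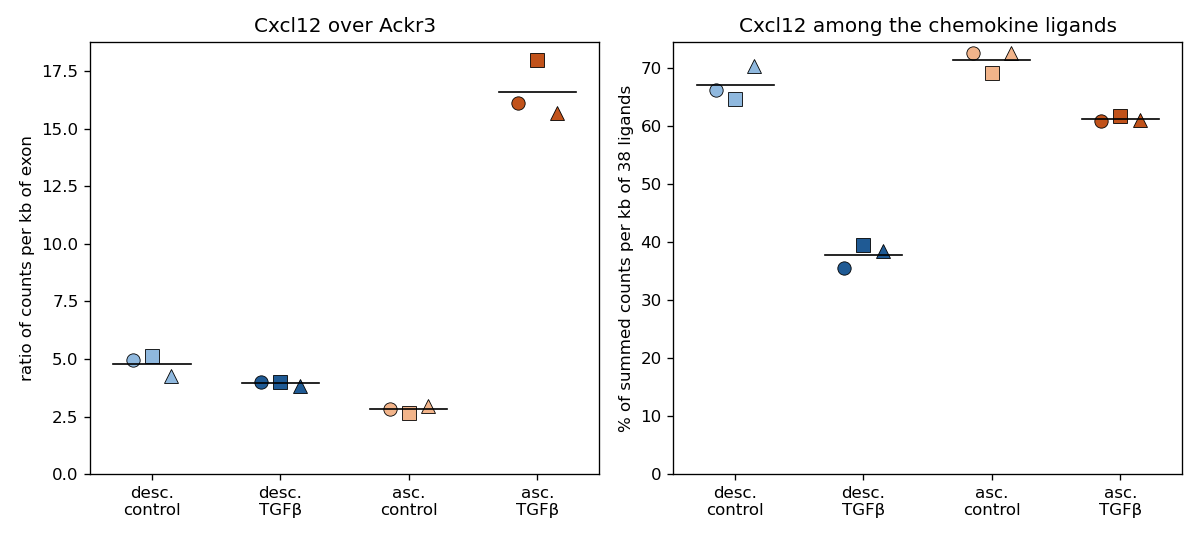
Left, ratio of Cxcl12 to Ackr3 in counts per kilobase of exon; right, Cxcl12 as a percentage of the summed counts per kilobase of 38 chemokine ligands; each symbol is a library (circle, square and triangle for replicates 1, 2 and 3) and each line a group mean. Ascending TGFβ libraries sit at 15.7 to 18 on the left, and descending TGFβ libraries at 35.6 to 39.5% on the right.

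Cx3cl1 rose with TGFβ at both sites to levels that differed little between them. It stood at 8.01, 11.1 and 7.86 normalised CPM in descending controls and at 70.3, 81.8 and 66.6 with TGFβ. In ascending fibroblasts it stood at 11.8, 12.4 and 11.9 normalised CPM in the controls and at 86.7, 82.1 and 81.1 with TGFβ. Every treated library was several-fold above every control, and at this gene the descending control that stood apart lay beside its group. The increase was 6.90-fold in ascending fibroblasts (log2 fold change 2.79, standard error 0.06, edgeR adjusted p = 3.31e-16). In descending fibroblasts it was 8.07-fold (log2 fold change 3.01, standard error 0.19, edgeR adjusted p = 0.00156), and 7.69-fold without descending control replicate 3 (log2 fold change 2.94). This was the only member called in descending fibroblasts under every alternative run.

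Of the proteases that release fractalkine, Adam17 fell with TGFβ at both sites, by 0.92 on the log2 scale in descending (edgeR adjusted p = 0.0145) and by 0.21 in ascending fibroblasts (edgeR adjusted p = 0.00115), with an interaction of 0.71 (adjusted p = 0.0339 by edgeR's test). Without descending control replicate 3 the descending change of Adam17 was -0.80 (edgeR adjusted p = 7.63e-13) and its interaction 0.60 (edgeR adjusted p = 1.08e-06). Adam10 rose by 0.19 on the log2 scale with TGFβ in ascending fibroblasts (edgeR adjusted p = 0.000146). Its descending change was -0.07 (edgeR adjusted p = 0.798), and 0.07 without control replicate 3 (edgeR adjusted p = 0.261). Cx3cr1, the receptor, had at most 29 counts in a library.

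The monocyte attractants Ccl2 and Ccl7 were lower with TGFβ in ascending fibroblasts. Ccl2 stood at 14.6, 15.7 and 15.7 normalised CPM in ascending controls and at 10.1, 13 and 8.67 with TGFβ, and Ccl7 at 11.9, 12.9 and 11.2 in the controls and at 6.68, 6.24 and 4.63 with TGFβ. Neither gene overlapped between the ascending groups. Ccl2 fell by 0.54 on the log2 scale (standard error 0.12, edgeR adjusted p = 0.00114) and Ccl7 by 1.04 (standard error 0.14, edgeR adjusted p = 5.57e-06). With the spread taken from the 12 libraries in one fit, the call of Ccl2 was lost (edgeR adjusted p = 0.121). All 9 macrophage markers also fell in this comparison, where 27.6% of all genes fell, with a median log2 fold change of -1.97, and none was at the floor throughout. They summed to 58.5, 374 and 62.3 normalised CPM in the ascending controls and to 31.5 to 45.3 with TGFβ, and their part in the changes of Ccl2 and Ccl7 was not tested. With the control library at 374 left out, Ccl2 fell by 0.52 (edgeR adjusted p = 0.00104) and Ccl7 by 0.99 (edgeR adjusted p = 9.63e-07).

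In descending fibroblasts the same genes depended on the library that stood apart. Ccl2 stood at 18.4, 18.6 and 13.1 normalised CPM in the controls and at 17.1, 11.8 and 11.9 with TGFβ. Ccl7 stood at 29.5, 33.8 and 12.2 normalised CPM in the controls and at 22.5, 19.7 and 17.3 with TGFβ. The groups overlapped for both genes through control replicate 3, and without it they did not. The log2 fold changes were -0.30 for Ccl2 (edgeR adjusted p = 0.490) and -0.35 for Ccl7 (edgeR adjusted p = 0.624) with all 6 libraries, and -0.44 (edgeR adjusted p = 0.00272) and -0.67 (edgeR adjusted p = 5.17e-07) without that control. In the same fit without it, 5 of 9 macrophage markers fell and 0 rose, where 26.3% of all genes fell, with a median log2 fold change of -1.13, while with all 6 libraries the 7 tested had adjusted p values of 0.175 to 0.993 by edgeR. These markers summed to 43.2, 52.2 and 28.1 normalised CPM in the descending controls and to 15.4 to 29.1 with TGFβ, and their part in the changes of Ccl2 and Ccl7 was not tested here either.

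In all, 5 of 6 members tested were called in ascending fibroblasts, 2 higher and 3 lower, where 55.8% of 13917 genes were called, 28.2% higher and 27.6% lower. In descending fibroblasts 3 of 6 were called, 1 higher and 2 lower, where 8.07% of 13825 genes were, 3.59% higher and 4.48% lower. Without descending control replicate 3 all 6 tested were called there, 2 higher and 4 lower, where 52.9% of 14311 genes were, 26.6% higher and 26.3% lower. Cxcl14, 1 of the 2 higher, passed the filter there through its TGFβ libraries alone. Since more than 1 gene in 2 was called in ascending fibroblasts, the count of members called there says little about the members as a list. The median log2 fold change of the members tested was -0.16 in ascending and -0.33 in descending fibroblasts, beside 0.00 and 0.02 for all genes. Without descending control replicate 3 the descending median was -0.56, beside -0.01 for all genes.

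**Figure D4:**
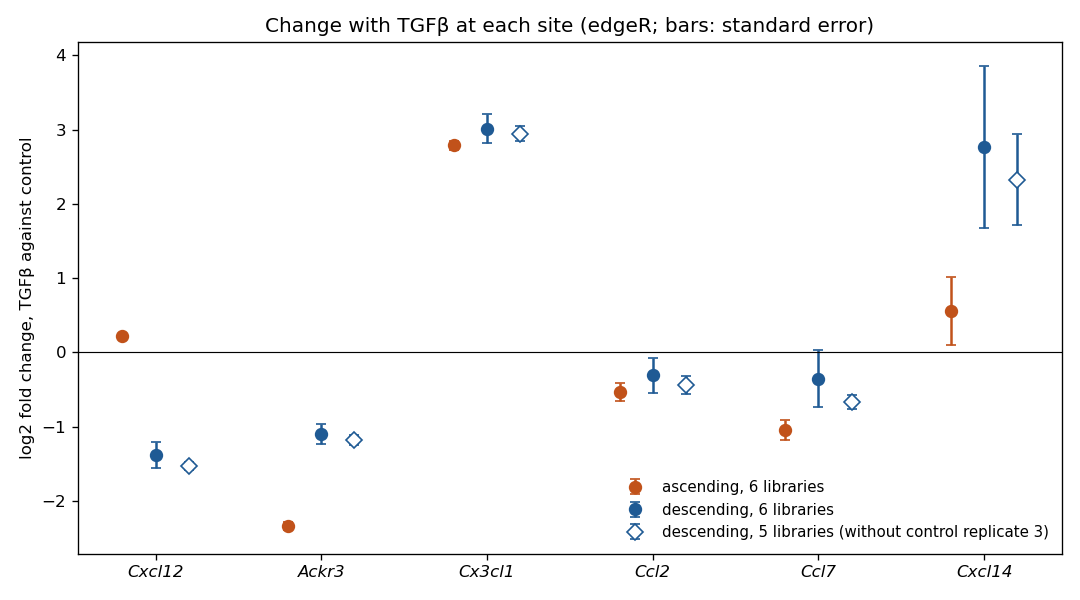
Log2 fold change, TGFβ against control, of the 6 members tested, with standard errors as bars; orange, ascending fibroblasts; blue, descending fibroblasts; open diamonds, descending fibroblasts without control replicate 3. Cxcl12 lies on opposite sides of 0 at the sites, Ackr3 lies lower in ascending fibroblasts, and the values of Cx3cl1 lie between 2.79 and 3.01.

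In control cultures, 0 of 5 members tested were called between the sites by edgeR, where 2.65% of 14090 genes were, 1.19% higher and 1.47% lower in ascending cultures. At an unadjusted p under 0.05 there were 2, given without the share of all genes, so this count says nothing of the members as a list. DESeq2 called 1 member and limma with sample weights 4. These tools also called more of all genes, as given under the dependence on the processing. Ackr3 was 1.63-fold higher in ascending controls (log2 fold change 0.70, standard error 0.13, edgeR adjusted p = 0.0521), with no overlap between the groups. Ccl7 had a log2 fold change of -1.06 between ascending and descending controls (standard error 0.38, edgeR adjusted p = 0.302). For Cxcl12 it was -0.08 (edgeR adjusted p = 0.829), for Ccl2 -0.12 (edgeR adjusted p = 0.759) and for Cx3cl1 0.43 (edgeR adjusted p = 0.450).

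Without descending control replicate 3, 4 of 6 members tested were called between the controls, 1 higher and 3 lower in ascending cultures, where 31.6% of 14644 genes were, 16.4% higher and 15.2% lower in ascending cultures. Ackr3 was higher in ascending controls by 0.62 on the log2 scale (edgeR adjusted p = 5.85e-07). Cxcl12, Ccl2 and Ccl7 were lower there, with log2 fold changes of -0.22 (edgeR adjusted p = 8.25e-05), -0.26 (edgeR adjusted p = 0.0306) and -1.39 (edgeR adjusted p = 3.41e-08). Cx3cl1, at 0.35 (edgeR adjusted p = 0.0658), and Cxcl14, at 1.48 (edgeR adjusted p = 0.152), did not pass.

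Between TGFβ cultures, none of which was the library that stood apart, 5 of 6 members tested were called, 2 higher and 3 lower in ascending cultures, where 36.3% of 13678 genes were, 18.1% higher and 18.2% lower in ascending cultures. Cxcl12 was 2.87-fold higher in ascending fibroblasts (log2 fold change 1.52, standard error 0.04, edgeR adjusted p = 4.95e-22). Ccl7 was 3.39-fold lower there (log2 fold change -1.76, standard error 0.12, edgeR adjusted p = 1.26e-12), and Ackr3 was 1.46-fold lower (log2 fold change -0.54, edgeR adjusted p = 1.39e-07). These 3 members were called in every alternative run.

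Smaller differences were seen for Cx3cl1, 1.15-fold higher in ascending TGFβ cultures (log2 fold change 0.20, edgeR adjusted p = 0.00674), and Ccl2, 1.28-fold lower (log2 fold change -0.36, edgeR adjusted p = 0.0409). Cx3cl1 lost its call without descending TGFβ replicate 3 (edgeR adjusted p = 0.0940) or ascending TGFβ replicate 1 (edgeR adjusted p = 0.0538). Ccl2 lost it without descending TGFβ replicate 1 (edgeR adjusted p = 0.404), ascending TGFβ replicate 1 (0.126) or ascending TGFβ replicate 3 (0.241), and by DESeq2 (adjusted p = 0.295). With the spread taken from the 12 libraries in one fit, neither gene passed (edgeR adjusted p = 0.644 for Cx3cl1 and 0.504 for Ccl2). For Cxcl14 the difference was -0.29 (edgeR adjusted p = 0.626).

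The neighbouring genes Ccl2 and Ccl7 stood in a different proportion at the sites. The ratio of Ccl7 to Ccl2 in counts per kilobase was 2.27, 2.58 and 1.32 in descending controls and 1.87, 2.37 and 2.07 in descending TGFβ cultures. In ascending controls it was 1.16, 1.17 and 1.02, and in ascending TGFβ cultures 0.942, 0.682 and 0.758. All descending libraries lay above all ascending libraries, with descending control replicate 3 nearest to the ascending values.

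On the scale of normalised CPM per kilobase, the order of the members differed between the groups below Cxcl12, which led in each. In ascending controls the order was Cxcl12 at 111 ± 1.5 (SD, n = 3), Ackr3 at 39.6 ± 1.69, Ccl7 at 15 ± 1.03, Ccl2 at 13.5 ± 0.583 and Cx3cl1 at 3.06 ± 0.0792. In ascending TGFβ cultures Cx3cl1 came next to Cxcl12, at 21.2 ± 0.758 against 130.0 ± 1.96 normalised CPM per kilobase, and Ccl2 at 9.30 ± 1.94, Ackr3 at 7.87 ± 0.552 and Ccl7 at 7.30 ± 1.35 followed within their spread. In descending controls Cxcl12 stood at 117 ± 23.1 normalised CPM per kilobase. It was followed by Ccl7 at 31.4 ± 14.3 and Ackr3 at 24.4 ± 2.75, which overlapped through replicate 3 alone, then Ccl2 at 14.7 ± 2.76 and Cx3cl1 at 2.28 ± 0.459. In replicates 1, 2 and 3 of the descending controls, Ccl7 stood at 36.9, 42.2 and 15.2 normalised CPM per kilobase and Ackr3 at 26.1, 25.9 and 21.2, so that Ccl7 was the higher in the first pair and the lower in the library that stood apart. In descending TGFβ cultures Cxcl12 at 45.3 ± 3.22 normalised CPM per kilobase was followed by Ccl7 at 24.8 ± 3.25 and Cx3cl1 at 18.6 ± 2.02, and then by Ccl2 at 12.0 ± 2.68 and Ackr3 at 11.5 ± 0.613, which did not differ beyond their spread.

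Cxcl14 was found at low counts. It had 2, 7 and 0 counts in descending controls and 31, 14 and 11 in descending TGFβ cultures, and 5, 10 and 18 counts in ascending controls and 20, 14 and 13 in ascending TGFβ cultures. The descending groups did not overlap, whereas the ascending groups did. Its log2 fold change with TGFβ was 2.77 in descending fibroblasts (standard error 1.09, edgeR adjusted p = 0.198) and 2.32 without control replicate 3 (standard error 0.61, edgeR adjusted p = 0.00196). Cxcl14 passed the filter in descending fibroblasts through the TGFβ libraries alone, so these tests could show a rise only and decide nothing on its direction. In ascending fibroblasts its log2 fold change was 0.56 (standard error 0.45, edgeR adjusted p = 0.316).

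The other 4 members did not pass the filter in any comparison. Ccl11 had 14, 9 and 0 counts in descending controls and at most 1 count in each library of the other groups. Cxcl10 had 0 counts in all 3 descending controls, 3, 5 and 7 in descending TGFβ cultures, 2, 2 and 1 in ascending controls and 4, 2 and 8 in ascending TGFβ cultures. Cxcl1 had at most 5 counts in a library and was above the floor in 2 libraries, and Cxcl5 had 1 count in all, in ascending control replicate 2. Apart from the 14 and 9 counts of Ccl11, these counts lie at or near the floor, which corresponds to 0.117 to 0.207 normalised CPM. The depth does not show differences at that level. Tested without a filter, Cxcl10 had an unadjusted p of 0.0106 in descending fibroblasts with TGFβ and Ccl11 one of 0.0456, and neither passed (edgeR adjusted p = 0.161 and 0.345). Between the control groups the unadjusted p was 0.0485 for Cxcl10 and 0.0377 for Ccl11 (edgeR adjusted p = 0.588 and 0.541), and for the interaction it was 0.0274 for Cxcl10 and 0.0403 for Cxcl1 (edgeR adjusted p = 0.761 and 0.803). The remaining tests of these 4 genes without a filter had an unadjusted p above 0.05. The floor accounts for counting error alone, as PCR copies were not told apart by molecular identifiers.

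The receptors of these ligands were rare or absent from the counts. Ccr2 and Cxcr2 had 0 counts in all 12 libraries, which allows up to the floor of 3 counts in each, Cxcr3 had at most 5 and Ccr3 at most 4. Cxcr4 had 4, 40 and 2 counts in ascending controls, 16, 6 and 5 in ascending TGFβ cultures and at most 4 in each descending library. Its highest value was in ascending control replicate 2, the library in which the macrophage markers summed to 374 normalised CPM. Cx3cr1 had 21, 29 and 12 counts in ascending controls. The part of other cells in these counts was not tested. Of 22 receptors other than Ackr3, 9 were at the floor in every library and 0 lay above it in every library.

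Of 29 other ligands, 7 were tested in ascending fibroblasts, where 2 rose and 3 fell with TGFβ, against 28.2% and 27.6% of all genes, and the median log2 fold change was -0.14. Ccl17, a ligand of Ccr4, had 9, 10 and 20 counts in ascending controls and 350, 350 and 409 with TGFβ, a 29.3-fold rise (log2 fold change 4.87, standard error 0.20, edgeR adjusted p = 2.34e-12). Cxcl16, a membrane-bound ligand of Cxcr6, rose by 1.51 on the log2 scale (edgeR adjusted p = 4.50e-07). Ccl6, a ligand known from myeloid cells, fell by 4.53 (edgeR adjusted p = 1.51e-07) from 94, 160 and 64 counts, and all 9 macrophage markers also fell in this comparison. Ccl6, 1 of the 3 ligands that fell, passed the filter through the control libraries alone, so its test could show a fall only. The part of macrophages in the change of Ccl6 was not tested. Ccl27a and Ccl28, known from epithelial tissues, fell by 0.64 and 1.20 (edgeR adjusted p = 0.00993 and 0.00852).

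In descending fibroblasts 7 of the other ligands were tested, of which 1 rose and 1 fell, against 3.59% and 4.48% of all genes, and the median log2 fold change was -0.33. Ccl17 had 2, 2 and 0 counts in the controls, all at or under the floor, and 116, 104 and 123 with TGFβ (edgeR adjusted p = 0.00410, and 2.38e-14 without control replicate 3). It passed the filter there through the TGFβ libraries alone, so the test could show a rise only. Ccl9, another ligand known from myeloid cells, fell by 1.62 on the log2 scale (edgeR adjusted p = 0.0495) and by 1.22 without control replicate 3 (edgeR adjusted p = 1.77e-07). In the latter fit 5 of 9 macrophage markers also fell, against 26.3% of all genes, and the part of macrophages in the change of Ccl9 was not tested. When descending control replicate 3 was left out, 8 were tested, 3 rose and 4 fell, against 26.6% and 26.3% of all genes. None of 8 other ligands had an interaction that passed in edgeR's test of the 12 libraries, and when descending control replicate 3 was left out only Ccl9 passed (interaction 1.08, edgeR adjusted p = 0.00155).

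Cxcl10 belongs to the genes known to respond to interferon. Of 12 others tested in ascending fibroblasts, 9 fell with TGFβ, 0 rose and 3 did not pass, with a median log2 fold change of -0.82, where 27.6% of all genes fell. In descending fibroblasts 5 of 13 fell, 0 rose and 8 did not pass, with a median of -0.99, where 4.48% of all genes fell. Without descending control replicate 3, 8 of these 13 fell, 4 did not pass and 1, Cxcl9, rose, where 26.3% of all genes fell. Ifit3, an antiviral protein, fell by 2.09 on the log2 scale in ascending (edgeR adjusted p = 9.91e-13) and by 1.46 in descending fibroblasts (edgeR adjusted p = 0.00791), or by 1.51 without control replicate 3 (edgeR adjusted p = 1.65e-11). Cxcl9, a further ligand of Cxcr3, was tested for a change with TGFβ in descending fibroblasts only and did not pass with all 6 libraries (log2 fold change 3.15, edgeR adjusted p = 0.0953), while it rose without control replicate 3 (log2 fold change 2.70, edgeR adjusted p = 0.000148). Cxcl9 lay above the floor in only 4 libraries. It passed the filter through the TGFβ libraries, so these tests could show a rise only.

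Targets of NF-kB and inflammatory genes often accompany Ccl2 and Cxcl1. In ascending fibroblasts 5 of 16 tested rose and 5 fell, with a median of -0.06, where 28.2% of all genes rose and 27.6% fell. Ptgs2, which encodes an inducible cyclooxygenase, rose by 4.28 on the log2 scale (edgeR adjusted p = 3.74e-19) and the cytokine Il6 by 2.95 (edgeR adjusted p = 7.58e-15), while the adhesion molecule Icam1 and the inhibitor Nfkbia fell. In descending fibroblasts 2 of 17, Ptgs2 and Il6, rose and 1, Nfkbia, fell, against 3.59% and 4.48% of all genes. With descending control replicate 3 left out, 3 rose and 8 fell, against 26.6% and 26.3% of all genes. Tnfaip3, an inhibitor of NF-kB signalling, was the 1 gene of 17 with an interaction that passed (0.79, edgeR adjusted p = 0.0218), where 0.806% of all genes passed. With that library left out, 5 of 17 passed, 4 positive (Ptgs2, Csf1, Tnfaip3 at 0.75 and Nfkbiz) and 1 negative (Tnfaip2), where 13.5% of all genes passed.

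Of 15 genes that process chemokines or hold them on heparan sulfate, 10 rose and 4 fell in ascending fibroblasts, with a median of 0.19, where 28.2% of all genes rose and 27.6% fell. The protease gene Mmp9, 1 of the 10, passed the filter through the ascending TGFβ libraries alone, so its test could show a rise only. Ext1, an enzyme of heparan sulfate chain synthesis, rose in ascending fibroblasts by 1.38 on the log2 scale (edgeR adjusted p = 7.58e-16) and in descending fibroblasts by 1.63 (edgeR adjusted p = 0.00664), or by 1.47 without control replicate 3 (edgeR adjusted p = 2.93e-20). In descending fibroblasts 3 of 14 rose and 1 fell, with a median of -0.01, where 3.59% of all genes rose and 4.48% fell. Without control replicate 3 there, 7 rose and 5 fell, with a median of 0.13, where 26.6% of all genes rose and 26.3% fell. Dpp4, a protease that cuts Cxcl12 and other chemokines, fell by 0.96 in ascending fibroblasts (edgeR adjusted p = 0.00943). Its change in descending fibroblasts was -0.62 on the log2 scale (edgeR adjusted p = 0.788), and -1.17 without control replicate 3 (edgeR adjusted p = 0.0106). For the interaction 1 of the 15 passed, with a positive sign, where 0.321% of all genes were positive and 0.485% negative. Without descending control replicate 3, 4 were positive and 2 negative, where 6.07% and 7.4% of all genes were. Mmp9 was 1 of these 4, and it could be positive only, for the same reason.

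The genes whose levels most resembled those of Cxcl12 were sought over the 12 libraries with Pearson's r on log2 CPM, among the 14637 genes tested for the interaction. The 5 nearest were Ccne1 (r = 0.933), Ncapg2 (0.926), Cdc45 (0.926), Olfml2a (0.925) and Kank1 (0.925). Ccne1 encodes a cyclin, Ncapg2 a condensin subunit and Cdc45 a replication factor. Over the 11 libraries without descending control replicate 3 the 5 nearest were Kpna2 (0.963), Plxnd1 (0.960), Cdca2 (0.959), Etv1 (0.957) and Clspn (0.954), so no gene was in both lists. Ackr3 had an r of 0.247 with Cxcl12 over 12 libraries, and Cx3cl1 one of -0.40. The libraries fall into 4 groups that share site and treatment, so r describes the order of the groups and carries no p.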

How the data were processed

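Reads of the 12 libraries were aligned to mm10, and the authors deposited the featureCounts read count of each gene symbol and library, not normalised. The submitters' processing notes also name STAR, FastQC and DESeq2. The strand setting and the treatment of reads that match several genes are not given in the sources used here. Groups follow the sample labels. The members and gene lists were chosen with earlier results of these data known.

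The analysis used edgeR 4.0.16 under R 4.3.3. Normalised CPM used TMM factors over the 12 libraries. Each comparison used the groups compared alone, and the interaction all 12 libraries. The test was edgeR's quasi-likelihood test, two-sided, after filterByExpr (minimum count 10, minimum total 15), with Benjamini-Hochberg adjustment over all genes tested and a threshold of 0.05. Pearson's r used log2 CPM with a prior count of 2. Levels per kilobase used GENCODE vM21 exons. A library's floor was 3 counts. The libraries differed by more than sampling noise, so none was counted as a duplicate. The fits were tested on simulated data.

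The genes named are the 10 members, their receptors, from each list at most 3 per direction with the smallest adjusted p, and the 5 nearest to Cxcl12 with and without descending control replicate 3. Genes named beyond these (Adam10, Adam17, Cxcl9, Nfkbia, Dpp4, Icam1, Csf1, Nfkbiz, Tnfaip2, Mmp9, Msln) were chosen by role or after their values were seen. Alternatives were DESeq2 1.42.0, its size factors, no filter, at least 10 counts in every library, a replicate block, limma 3.58.1 with sample weights, one fit of 12 or 11 libraries, and each library left out. Figures used Python with matplotlib.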

Additional observations from a re-analysis of the deposited data

Results flagged for a closer look

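For Cxcl12 and Ackr3, the change with TGFβ differed between ascending and descending fibroblasts by the interaction test of edgeR. The difference on the log2 scale was 1.60 for Cxcl12 (standard error 0.18, adjusted p = 0.00411) and -1.24 for Ackr3 (standard error 0.14, adjusted p = 0.00427). Every ascending TGFβ library was above every ascending control for Cxcl12, and every descending TGFβ library was below every descending control.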

How the results depend on the processing

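Among the values of single members under an alternative, 369 kept their direction and their side of the threshold, 26 came to pass it, 18 no longer passed it and 2 changed sign. The sign changed for Cxcl12 between control cultures without descending control replicate 2 (log2 fold change 0.018, in a range from -0.22 over the libraries left out) and for Cxcl14 between TGFβ cultures without descending TGFβ replicate 1 (0.29, in a range from -0.60), and neither passed. The causes of changes in these counts were not tested.

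In ascending fibroblasts, one fit of 12 libraries called 2338 genes and 3 members with TGFβ. In descending fibroblasts, DESeq2 called 2531 genes, limma with sample weights 7335 and 6 members, one fit of 12 libraries 3570, and one fit without descending control replicate 3, of 11 libraries, 7704 and 6 members. Leaving out 1 library there gave 213 to 7576 genes and 1 to 6 members, with the highest values without descending control replicate 3 and 1 member without any descending TGFβ library. Between controls, DESeq2 called 1151 genes and 1 member, its size factors in edgeR 1 member, at least 10 counts in every library 1 member, limma 4392 genes and 4 members, one fit of 12 libraries 1545 and 1, and one fit of 11 libraries 4953 and 4. Leaving out 1 library gave 33 to 4631 genes and 0 to 4 members, again highest without descending control replicate 3. Between TGFβ cultures, one fit of 12 libraries called 1106 genes and 3 members, and leaving out 1 library 3 to 5 members, with 3 without ascending TGFβ replicate 1. For the interaction, DESeq2 called 494 genes, no filter 56, limma 1979 and leaving out 1 library 25 to 2022, and the 2 members were called in each. The shares of all genes tested are not given beside these counts. The counts of members here therefore say nothing of the members as a list.

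The samples were treated as unpaired, and the correlation of the deviations of equally numbered libraries was at most 0.0655. With 3 libraries in a group, such correlations cannot decide whether equally numbered cultures came from the same animals. With the replicate number as a block, 95 genes and 1 member were called in descending fibroblasts, 0 genes between controls and 50 for the interaction. Under the block the descending changes of Cxcl12 (-1.36, edgeR adjusted p = 0.0648) and Ackr3 (-1.09, adjusted p = 0.0856) did not pass. Depth limits the statements on Cxcl1, Cxcl5, Cxcl10 and Ccl11.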

Other observations

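The summed mesothelial and adipocyte markers did not overlap between the sites. The mesothelial markers summed to 85.3 to 101 normalised CPM in ascending controls, 48.6 to 57.9 in ascending TGFβ cultures and 23.2 to 28.9 in descending cultures, with Wt1 at the floor in every library. Between controls, 2 of 4 mesothelial markers tested were higher in ascending cultures and 0 lower, where 1.19% and 1.47% of all genes were. Without descending control replicate 3, 4 of 5 were higher and 1, Krt19, was lower, where 16.4% and 15.2% of all genes were. Where they were tested between controls, Lrrn4 and Msln passed the filter through the ascending libraries alone, so they could be called higher only. The adipocyte markers summed to 9.73 to 30.6 normalised CPM in descending cultures and to 0.0473 to 4.99 in ascending cultures. The smooth muscle markers, which include the TGFβ targets Acta2, Tagln and Cnn1, summed to 1582 to 2556 normalised CPM in controls and to 5108 to 8381 with TGFβ. The endothelial markers reached 28.1 normalised CPM at most, and Emcn was at the floor in every library. The Schwann cell markers summed to 14.7 to 25.9 normalised CPM in controls and to 10.8 to 15.7 with TGFβ. The part of these cells in the chemokine values was not tested.

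Cxcr6, the receptor of Cxcl16, had 1, 0 and 0 counts in descending controls and 15, 12 and 19 with TGFβ (edgeR adjusted p = 0.0366, and 1.94e-05 without control replicate 3). Cxcr6 passed the filter in descending fibroblasts through the TGFβ libraries alone, so these tests were open to a rise only and decide nothing on its direction. In ascending fibroblasts Cxcr6 had 1, 3 and 2 counts in controls and 7, 5 and 6 with TGFβ.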
